A study of Rattus norvegicus with 26 samples.

Results

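The comparison described here sets the rat spinal cord 1 week after human stem cells were injected against the injured cord at the time of transplantation. Its members were the genes that passed an expression filter (edgeR's filterByExpr), which kept 17990 of the 32883 genes in the table, in 3 +MSC-1w and 3 sub-SCI libraries of the series' 26. All groups were female, wild-type Sprague-Dawley rats, labelled as postnatal day 70 in every group, so the labels do not separate the groups by age. Injury was a compression of the T10 segment with an aneurysm clip of 60 g force for 1 min. Sub-SCI rats were sampled at day 7 after injury, when the other injured rats received their injection. The +MSC-1w rats received hUC-MSCs, mesenchymal stem cells of the human umbilical cord, intrathecally on day 7, and the +PBS-1w rats received phosphate-buffered saline, and both were sampled 1 week later, at day 14 after injury. Intact rats were not injured. According to the study's methods, rats were also given cyclosporin A, an immunosuppressant, daily throughout the experiment to limit rejection of the human cells. The day of the first dose is not stated, so the length of exposure may differ between the groups. Poly(A) RNA was sequenced from segments of 5 mm centered at the lesion, and read pairs that mapped to the human genome had been removed before counting. The labels do not say whether a library came from 1 animal or from pooled animals, so the p-values measure the spread between these libraries. The +MSC-1w and sub-SCI groups differ in time after injury, in the injection and its cells, and possibly in exposure to cyclosporin A. The parts of time, injection, cells and cyclosporin A cannot be told apart in this comparison alone. The +PBS-1w group, which shares the time and the injection, is given beside the main results.

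A compressed cord loses neurons at the lesion and fills with phagocytes, dividing cells and new extracellular matrix over the first week. Microglia and blood-derived macrophages take up myelin and blood debris and break it down in lysosomes, fibroblasts lay down collagen and fibronectin, and astrocytes turn on genes of the glial scar. Inhibition in the cord is carried by GABA and glycine, which open chloride channels, and the direction of chloride flow is set by cation-chloride cotransporters. In a whole segment, fewer cells of a type and less RNA per cell cannot be told apart.

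Of the genes tested, 1163 (6.46%) were higher and 633 (3.52%) were lower in +MSC-1w than in sub-SCI as differentially expressed genes (DEGs), that is, genes that differed by more than 1 on the log2 scale at an adjusted p under 0.01 by the quasi-likelihood test of edgeR, adjusted by Benjamini-Hochberg over all genes tested. Of the lists described here, cell division genes had the largest share of lower DEGs, with 20 of 23, and the lists of motor neuron and channel genes and of GABA receptor subunits the largest shares of higher DEGs, with 13 of 16 and 11 of 14. The median log2 fold change was 1.61 among the higher DEGs and a fall of 1.59 among the lower ones, against 0.02 over all genes tested, and 266 higher and 197 lower DEGs moved by more than 2 on the log2 scale. In 1161 of the higher and 630 of the lower DEGs, the values of the 3 +MSC-1w libraries did not overlap those of the 3 sub-SCI libraries. Of all genes tested, 25.8% lay apart in the higher direction and 24.1% in the lower. At an adjusted p under 0.05 by edgeR with no fold threshold, 2851 of the 17990 genes were higher and 2465 lower. The counts at an unadjusted p under 0.05 are larger than or equal to these and are not given here. The list counts at that threshold below therefore stand without an exact background share. DESeq2 on all libraries called 1392 genes higher and 803 lower as DEGs, the background for the list counts by DESeq2 on all libraries below. Higher DEGs had a median length of 2878 bases against 2156 for all genes tested and 2127 for lower DEGs, and 1100 of the higher and 604 of the lower DEGs were protein-coding.

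In +PBS-1w against sub-SCI, 9 genes (0.05%) were higher and 19 (0.106%) lower by the same rule. Replicate numbers were taken to pair the libraries of that comparison, which the labels do not state. With the number as a block, 4 genes were higher and 16 lower. DESeq2 on all libraries called 149 higher and 123 lower. Without sub-SCI replicate 3 or without +PBS-1w replicate 2 edgeR called no gene in either direction, without +PBS-1w replicate 3 it called 68 higher and 18 lower, without +PBS-1w replicate 1 it called 4 and 3, without sub-SCI replicate 1 it called 19 and 38, and without sub-SCI replicate 2 it called 7 and 12. The median log2 fold change of +PBS-1w against sub-SCI was 0.78 over the 1163 genes higher in +MSC-1w and -0.86 over the 633 lower ones, and both comparisons use the same sub-SCI libraries. In the direct test of +MSC-1w against +PBS-1w, 2 genes (0.0111%) were DEGs, Ninj1 and Htr2b, and both were lower in +MSC-1w, while at an unadjusted p under 0.05 edgeR gave 3219 genes, 1899 higher and 1320 lower in +MSC-1w. No gene was a DEG higher in +MSC-1w than in +PBS-1w by edgeR, where DESeq2 on all libraries called 30 higher and 40 lower.

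**Figure D1:**
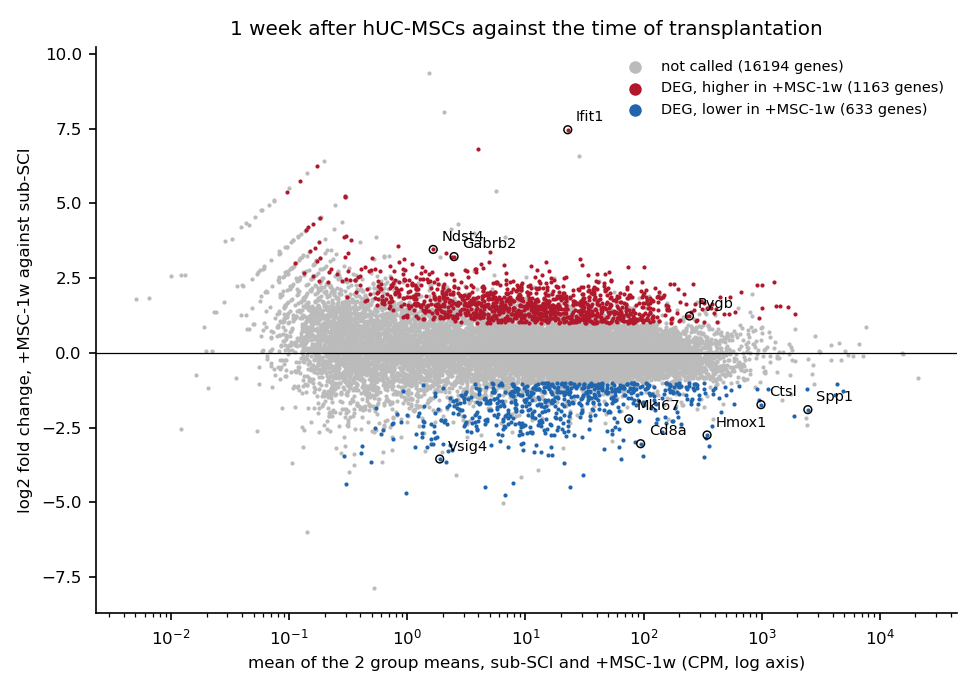
Each point is 1 of the 17990 genes tested, with its level as the mean of the sub-SCI and +MSC-1w means in CPM, library-scaled read counts (log axis) and its log2 fold change in +MSC-1w against sub-SCI. Red points are the 1163 higher DEGs and blue points the 633 lower DEGs, and named genes are ringed. The median level was 10.7 CPM for the higher and 18.1 CPM for the lower DEGs.

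Depth was similar between the groups, at 27697134 to 35403139 counts in sub-SCI, 24462279 to 33484347 in +MSC-1w and 24391212 to 32946100 in +PBS-1w. Sub-SCI replicate 3 stood apart from the other sub-SCI libraries. The summed level of 15 neuron markers was 851.4 CPM in it, against 2495 and 3370 CPM in the other sub-SCI libraries, and the summed level of the cell division genes was 1369 CPM against 775.9 and 887.6 CPM. Without that library, 482 genes were higher and 330 lower in +MSC-1w, 476 and 326 of them DEGs of the fit on all libraries. Without +MSC-1w replicate 1, 775 were higher and 420 lower. On the labelled tissue, neuron, astrocyte, oligodendrocyte and microglial markers were all present, and the list of 4 erythrocyte genes summed to 661.7 to 801 CPM in sub-SCI and 244.1 to 1015 CPM in +MSC-1w.

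Most genes of the dividing cell were lower in +MSC-1w. Of 23 cell division genes tested, 20 were DEGs, all lower in +MSC-1w, and the remaining 3 were Aurkb, Tyms and Pcna. In all 23 the 3 +MSC-1w libraries lay below the 3 sub-SCI libraries. The median log2 fold change was -2.20 in +MSC-1w and -1.35 in +PBS-1w, against 0.02 and 0.01 over all genes, and 1 member, Ccnb1, was a DEG in +PBS-1w. In the fit without sub-SCI replicate 3, 19 of the 23 were DEGs. None of the 23 was a DEG between +MSC-1w and +PBS-1w, where the median difference was -0.87.

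Ccnb1 encodes cyclin B1, the partner of the mitotic kinase Cdk1. Its level was 19.3, 22.2 and 39.8 CPM in sub-SCI and 5.23, 5.21 and 5.24 CPM in +MSC-1w (log2 fold change -2.37, SE 0.28, adjusted p = 2.22e-05). The +MSC-1w libraries were nearly equal, while sub-SCI replicate 3 was the highest of all. In +PBS-1w the libraries held 12.6, 7.12 and 8.85 CPM, between the other groups. Cdk1 itself was at 32.4, 31.3 and 55.4 CPM in sub-SCI and 7.33, 6.23 and 5.67 CPM in +MSC-1w (log2 fold change -2.63, SE 0.44, adjusted p = 0.000232). Plk1, a kinase of mitotic entry, was at 21.9, 22.6 and 38.6 CPM in sub-SCI and 4.87, 6.09 and 4.53 CPM in +MSC-1w (log2 fold change -2.42, SE 0.31, adjusted p = 3.39e-05). The topoisomerase gene Top2a was at 77.7, 84.0 and 138 CPM in sub-SCI and 18.5, 21.8 and 19.4 CPM in +MSC-1w (log2 fold change -2.33, SE 0.46, adjusted p = 0.000853). The groups did not overlap in any of these genes. Mki67, the source of the Ki-67 antigen used to count dividing cells, was at 85.7, 109.6 and 174 CPM in sub-SCI, 23.3, 28.2 and 28.5 CPM in +MSC-1w, 64.1, 37.7 and 44.1 CPM in +PBS-1w and 6.15 to 22.7 CPM in Intact. The Mki67 difference was -2.20 on the log2 scale (SE 0.42, adjusted p = 0.000602).

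Smaller differences were found for genes of DNA replication. The helicase genes Mcm2 (log2 fold change -1.41, adjusted p = 7.02e-05) and Mcm6 (-1.69, adjusted p = 5.68e-05) were lower, and Pcna, the replication clamp, went from 101, 107 and 127 CPM to 75.2, 69.1 and 68.9 CPM, a log2 fold change of -0.65 that misses the fold threshold (adjusted p = 0.0011). Aurkb, a kinase of chromosome segregation, had a log2 fold change of -2.35 with an adjusted p of 0.0467. Stil, needed to build centrioles and not on the list, was among the 12 lower DEGs of smallest adjusted p, at 6.68, 10.7 and 14.4 CPM in sub-SCI and 2.37, 2.52 and 2.01 CPM in +MSC-1w (log2 fold change -2.20, SE 0.23, adjusted p = 7.18e-06). It was a DEG in +PBS-1w as well, with a log2 fold change of -1.30.

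The promoters of 4 of these genes are shown to describe short sequence elements that some, but not all, members hold. Of the 23 genes, 19 had a promoter window in the RefSeq table, covering 250 bases before and 50 after the start of transcription (build GRCr8). The CCAAT box, searched as CCAAT on either strand, was in 15 of 19 windows (78.9%) against 37.5% of all 33469 windows. Those 33469 windows were not limited to the genes tested. The element TTTGAA, the core of the cell cycle homology region, also searched on either strand, was in 9 of 19 (47.4%) against 18.3%. Both were in 7 of 19 (36.8%) against 7.41%. In the windows printed here no match of one motif overlapped a match of the other. Each sequence is written 5′ to 3′ with the motifs in capitals, from chr2:33655176-33655475 (minus strand) for Ccnb1, chr1:186147408-186147707 (plus strand) for Plk1, chr20:19265043-19265342 (plus strand) for Cdk1 and chr10:84473044-84473343 (minus strand) for Top2a.
Ccnb1: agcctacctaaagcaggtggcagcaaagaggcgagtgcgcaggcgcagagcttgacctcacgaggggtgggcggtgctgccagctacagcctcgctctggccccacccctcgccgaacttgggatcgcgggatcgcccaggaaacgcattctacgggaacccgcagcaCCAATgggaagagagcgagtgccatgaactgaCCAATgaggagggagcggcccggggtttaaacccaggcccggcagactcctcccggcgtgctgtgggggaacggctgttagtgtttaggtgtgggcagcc
Plk1: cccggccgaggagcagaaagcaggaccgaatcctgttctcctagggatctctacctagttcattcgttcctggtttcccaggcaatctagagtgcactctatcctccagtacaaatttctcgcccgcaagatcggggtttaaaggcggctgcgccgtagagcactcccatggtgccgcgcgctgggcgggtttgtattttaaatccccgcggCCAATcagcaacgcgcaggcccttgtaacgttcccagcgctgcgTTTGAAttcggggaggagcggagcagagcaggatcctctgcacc
Cdk1: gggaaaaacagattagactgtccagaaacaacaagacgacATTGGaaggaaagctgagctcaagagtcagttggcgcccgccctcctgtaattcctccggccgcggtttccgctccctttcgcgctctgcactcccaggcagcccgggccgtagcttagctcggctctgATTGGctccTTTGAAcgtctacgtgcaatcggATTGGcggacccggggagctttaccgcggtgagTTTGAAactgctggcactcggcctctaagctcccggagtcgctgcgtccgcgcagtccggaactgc
Top2a: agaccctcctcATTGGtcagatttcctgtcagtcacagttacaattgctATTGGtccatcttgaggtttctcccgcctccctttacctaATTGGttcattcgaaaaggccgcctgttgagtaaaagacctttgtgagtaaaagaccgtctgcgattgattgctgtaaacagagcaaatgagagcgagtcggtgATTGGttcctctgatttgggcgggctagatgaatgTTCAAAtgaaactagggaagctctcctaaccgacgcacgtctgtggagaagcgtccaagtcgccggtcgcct
The Ccnb1 window held 2 CCAAT boxes and no TTTGAA. Plk1 held 1 of each, Cdk1 held 3 and 2, and Top2a held 4 and 1, some of them on the reverse strand as ATTGG or TTCAAA. These matches describe the letters only, and the part of these elements in the lower levels was not tested.

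Of 10 iron and heme genes, 3 were DEGs in +MSC-1w, Hmox1, Tfrc and the ferritin light chain gene Ftl1, all lower, and in +PBS-1w the DEGs of this list were Hmox1 and Tfrc. Ftl1 had a log2 fold change of -1.29 (adjusted p = 0.00718), and its call was lost without any 1 of the 6 libraries (from -1.46 to -1.14). Hmox1 encodes heme oxygenase 1, which breaks down heme after bleeding. Its level was 522, 534 and 744 CPM in sub-SCI, 76.0, 112 and 80.3 CPM in +MSC-1w, 285, 143 and 163 CPM in +PBS-1w and 13.7 to 19.4 CPM in Intact. Every +MSC-1w library was below every +PBS-1w library, and every +PBS-1w library below every sub-SCI library. Its log2 fold change was -2.75 (SE 0.28, adjusted p = 4.05e-06) in +MSC-1w and -1.61 (SE 0.27, adjusted p = 0.00583) in +PBS-1w, and their difference of -1.14 had an adjusted p of 0.0677. Tfrc, the transferrin receptor, had log2 fold changes of -1.20 (adjusted p = 7.06e-05) and -1.06 (adjusted p = 0.00473), and Intact libraries held 169 to 192 CPM, above the +MSC-1w libraries at 96.3 to 104 CPM.

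Some lysosomal and phagocyte genes were lower in +MSC-1w. Of 14 lysosomal cathepsins and hydrolases, 5 were DEGs, all lower, 13 had a negative fold change and 1 a positive one, with a list median of -0.86 in +MSC-1w and -0.24 in +PBS-1w. Ctsl, the protease cathepsin L, was at 1264, 1415 and 1863 CPM in sub-SCI, 419, 449 and 500.0 CPM in +MSC-1w, 812, 758 and 838 CPM in +PBS-1w and 128 to 166 CPM in Intact, with no overlap between any of these groups. Its log2 fold change was -1.73 (SE 0.15, adjusted p = 4.94e-07). Cathepsin B (Ctsb) was at 6386, 6994 and 7184 CPM in sub-SCI and 3096, 2631 and 2701 CPM in +MSC-1w (log2 fold change -1.29, SE 0.19, adjusted p = 9.11e-05), and cathepsin C (Ctsc) had a log2 fold change of -1.39 (adjusted p = 0.000191). Without sub-SCI replicate 3, 4 members of the list were DEGs.

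Of 15 phagocyte and lipid handling genes, 5 were DEGs, all lower, and all 15 had an unadjusted p under 0.05 in that direction. The list median was -1.04 in +MSC-1w and -0.32 in +PBS-1w. Cd68, a lysosomal protein of macrophages, was at 548, 702 and 689 CPM in sub-SCI, 270.0, 199 and 216 CPM in +MSC-1w and 629, 318 and 655 CPM in +PBS-1w (log2 fold change in +MSC-1w -1.50, SE 0.35, adjusted p = 0.00296). The sub-SCI and +MSC-1w libraries lay apart, and +PBS-1w replicate 2 stood alone below the rest of its group. Gpnmb, a glycoprotein of lipid-laden macrophages, had a log2 fold change of -1.40 (adjusted p = 0.00537), and Trem2, a lipid receptor of microglia and macrophages, one of -1.22 (adjusted p = 0.00514). These calls depended on single libraries. Without sub-SCI replicate 3, no member was a DEG by edgeR, with log2 fold changes of -1.45 for Cd68 (adjusted p = 0.0131), -1.34 for Gpnmb (adjusted p = 0.0228) and -1.22 for Trem2 (adjusted p = 0.018). Without +MSC-1w replicate 2 or replicate 3 no member was called either, without sub-SCI replicate 2 only 1 was, and without +MSC-1w replicate 1 there were 3. DESeq2 on all libraries called 7, all lower, where it called 803 lower over all genes. Apoe, the main lipid carrier of the cord, was at 30360, 26770 and 23700 CPM in sub-SCI and 17920, 12640 and 14490 CPM in +MSC-1w (log2 fold change -0.84, adjusted p = 0.0115).

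**Figure D2:**
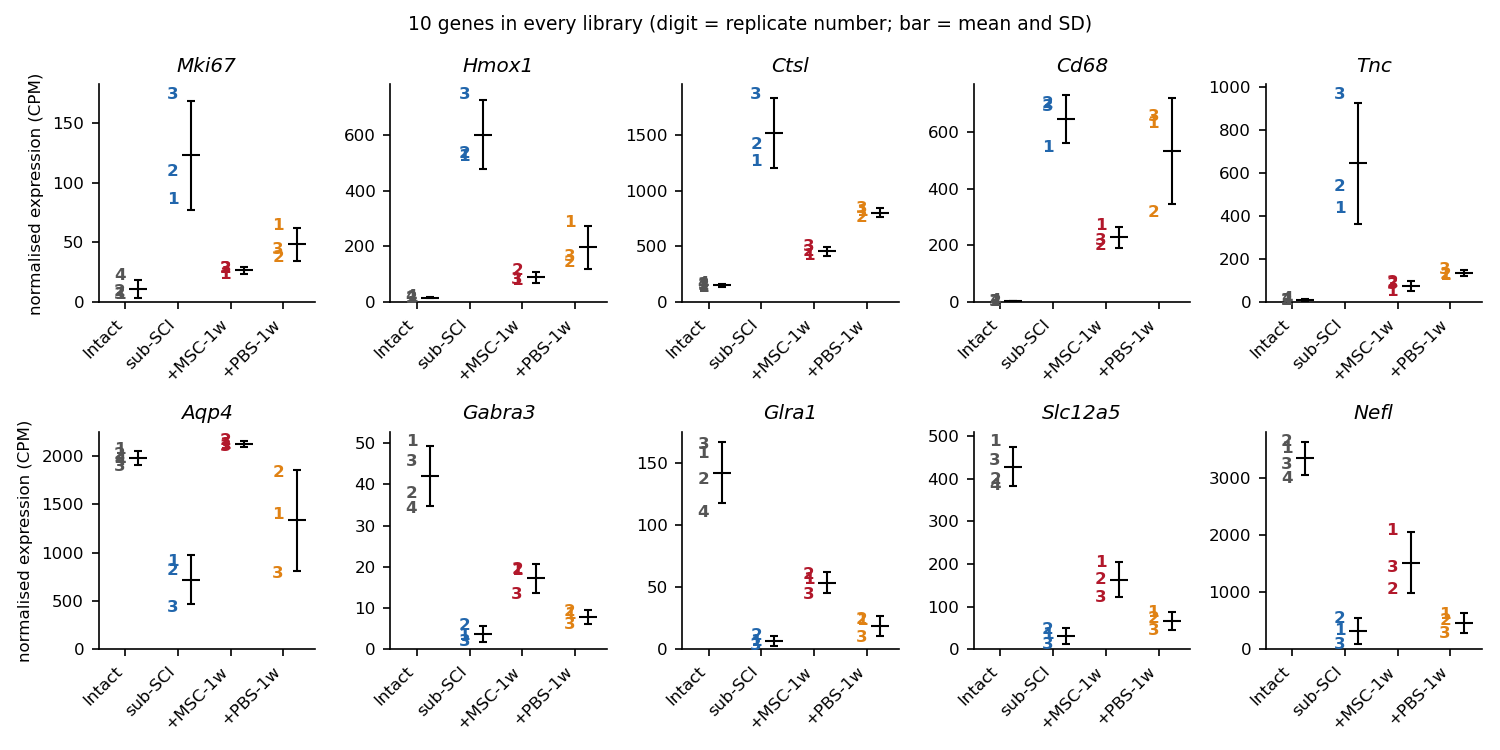
Normalised expression (CPM, linear axis) of 10 genes in every Intact, sub-SCI, +MSC-1w and +PBS-1w library, with each digit the replicate number of a library, placed at that library's value, and each bar the group's mean and SD. The +MSC-1w libraries lie apart from the sub-SCI libraries in all 10 genes, and in Aqp4 they also lie above the 4 Intact libraries, at 1890 to 2063 CPM.

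The 12 genes of homeostatic microglia had a median log2 fold change of -0.05, and edgeR called none of them, with 2 higher and 2 lower at an unadjusted p under 0.05. DESeq2 called none of these 12 on all libraries and 1, lower, on the 2 groups alone. Their summed level was 1531 to 1892 CPM in sub-SCI, 1425 to 1779 CPM in +MSC-1w and 511.9 to 687.9 CPM in Intact. The 8 MHC class II genes had no DEG and none at an unadjusted p under 0.05, and DESeq2 called none. Of 13 complement genes, 1 was a DEG, C5ar1, the receptor for the anaphylatoxin C5a. It was at 71.4, 87.2 and 92.1 CPM in sub-SCI, 14.2, 12.4 and 14.3 CPM in +MSC-1w and 46.5, 30.6 and 32.1 CPM in +PBS-1w (log2 fold change in +MSC-1w -2.61, SE 0.30, adjusted p = 1.32e-05). The 3 groups did not overlap. The list median was -0.48 in +MSC-1w and 0.34 in +PBS-1w, with 10 members negative and 3 positive in +MSC-1w. C3, the central complement component, had a positive sign, at 235.6, 248 and 56.3 CPM in sub-SCI and 382, 528 and 702 CPM in +MSC-1w (log2 fold change 1.58, SE 0.59, adjusted p = 0.0474). C4a, a complement component outside the list that was chosen after its values were seen, was a DEG in the opposite direction to C5ar1. It was at 2.38, 2.21 and 2.20 CPM in sub-SCI, 5.41, 8.09 and 6.97 CPM in +MSC-1w and 5.77, 10.3 and 9.53 CPM in +PBS-1w. The change was 1.59 on the log2 scale in +MSC-1w (SE 0.29, adjusted p = 0.00044) and 1.91 in +PBS-1w (SE 0.29, adjusted p = 0.00335). C4a and its close paralog C4b may share reads, so the split between them is uncertain.

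Among leukocyte genes, Cd8a had a wide difference. Cd8a encodes a co-receptor of cytotoxic T cells that some rat macrophages also carry. Its level was 178, 159 and 168 CPM in sub-SCI, 14.1, 17.6 and 29.9 CPM in +MSC-1w, 57.6, 154 and 72.8 CPM in +PBS-1w and under 1 CPM in Intact. Its log2 fold change was -3.04 (SE 0.42, adjusted p = 5.33e-05), and the difference from +PBS-1w was -2.21 (adjusted p = 0.0347), which misses the threshold. Cd3e, a T cell receptor subunit, was at 4.56, 4.78 and 3.42 CPM in sub-SCI and 1.77, 0.729 and 2.60 CPM in +MSC-1w (log2 fold change -1.32, adjusted p = 0.185). Of 13 T and B lymphocyte genes, 3 were DEGs, all lower, and 1 without +MSC-1w replicate 2. The list median was -1.37, with 9 members negative and 4 positive and log2 fold changes from -3.04 to 2.7. Over the members with at least 10 counts in every library the median was 0.21, so the list did not move as a whole. Cd8b, the partner chain of Cd8a, was at 33.4, 38.6 and 29.0 CPM in sub-SCI and 10.5, 12.6 and 16 CPM in +MSC-1w (log2 fold change -1.37, SE 0.30, adjusted p = 0.00185), and the call was lost without +MSC-1w replicate 1 (-1.23, adjusted p = 0.0143) or +MSC-1w replicate 2 (-1.35, adjusted p = 0.0101). Of 17 chemokine and cytokine genes, 2 were DEGs, both lower, 1 without +MSC-1w replicate 1 or replicate 2, and among them was Ccl5, which attracts T cells and macrophages, at 21.8, 16.3 and 11.3 CPM in sub-SCI and 2.52, 1.53 and 1.93 CPM in +MSC-1w (log2 fold change -3.04, SE 0.59, adjusted p = 0.000774). In +PBS-1w Ccl5 was at 1.25, 5.41 and 2.68 CPM. Ccl7, a chemokine for monocytes, was at 7.82, 17.6 and 15.7 CPM in sub-SCI and 1.35, 2.44 and 4.13 CPM in +MSC-1w (log2 fold change -2.38, SE 0.51, adjusted p = 0.00165), and the call was lost without +MSC-1w replicate 1 (-2.06, adjusted p = 0.0132) or +MSC-1w replicate 2 (-2.33, adjusted p = 0.0103). Of 13 metalloproteinases and inhibitors, 2 were DEGs, both lower, with a median of -0.88 and 10 members negative and 3 positive. Mmp19, a matrix metalloproteinase, was at 85.1, 79.2 and 108 CPM in sub-SCI and 36.4, 43 and 40.7 CPM in +MSC-1w (log2 fold change -1.18, SE 0.22, adjusted p = 0.00061). Adam8, a membrane protease of activated leukocytes, went from 66.3, 119 and 150.4 CPM to 14.8, 12.8 and 10.5 CPM (log2 fold change -3.14, SE 0.44, adjusted p = 6.30e-05).

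The 2 DEGs of the direct comparison with saline were also among the most significant here. Ninj1 encodes ninjurin 1, a membrane protein involved in the rupture of dying cells. It was at 178, 203 and 186 CPM in sub-SCI, 61.9, 55.0 and 60.8 CPM in +MSC-1w, 118, 127 and 114 CPM in +PBS-1w and 19.4 to 24.3 CPM in Intact, and the groups did not overlap. The log2 fold change was -1.68 (SE 0.13, adjusted p = 4.07e-07) against sub-SCI and -1.02 (SE 0.13, adjusted p = 0.00212) against +PBS-1w. Htr2b, a serotonin receptor found on microglia and macrophages, was at 33.0, 46.8 and 55.7 CPM in sub-SCI, 6.64, 7.25 and 6.22 CPM in +MSC-1w and 26.8, 18.9 and 25.6 CPM in +PBS-1w. For Htr2b the log2 fold change was -2.75 (SE 0.28, adjusted p = 4.05e-06) against sub-SCI and -1.83 (SE 0.27, adjusted p = 0.00795) against +PBS-1w. Leaving out any of the +MSC-1w libraries, +PBS-1w replicate 1 or +PBS-1w replicate 2 left no DEG between +MSC-1w and +PBS-1w by edgeR.

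Of 13 collagen genes, 3 were DEGs, all lower, and 12 had an unadjusted p under 0.05 in that direction. The list median was -1.71 in +MSC-1w and -0.65 in +PBS-1w. Col4a1, a chain of basement membrane collagen, was at 616, 672 and 864 CPM in sub-SCI, 161, 207 and 184 CPM in +MSC-1w and 355, 394 and 621 CPM in +PBS-1w (log2 fold change in +MSC-1w -1.96, SE 0.28, adjusted p = 7.02e-05). Its partner Col4a2 had a log2 fold change of -1.61 (adjusted p = 0.000355). Col1a1, a chain of fibrillar collagen, was at 3022, 3215 and 6001 CPM in sub-SCI and 562, 895 and 818 CPM in +MSC-1w, and although the groups lay apart its log2 fold change of -2.43 (SE 0.73) had an adjusted p of 0.0161. Of 16 fibroblast and scar matrix genes, 3 were DEGs, all lower, none without sub-SCI replicate 3, +MSC-1w replicate 1 or +MSC-1w replicate 3, and 1 without +MSC-1w replicate 2. DESeq2 on all libraries called 5, all lower, where it called 803 lower over all genes. Postn, periostin, a matrix protein of fibroblasts, was at 175, 256 and 306 CPM in sub-SCI and 16.5, 67.8 and 33.2 CPM in +MSC-1w (log2 fold change -2.65, SE 0.62, adjusted p = 0.00293), and the call was lost without sub-SCI replicate 3 (-2.46, adjusted p = 0.0139), +MSC-1w replicate 1 (-2.28, adjusted p = 0.02) or +MSC-1w replicate 3 (-2.55, adjusted p = 0.0164). Pdgfrb, a receptor of pericytes and scar-forming fibroblasts, was at 135, 156 and 199 CPM in sub-SCI and 50.7, 65.6 and 67.3 CPM in +MSC-1w (log2 fold change -1.42, SE 0.33, adjusted p = 0.00331), and the call was lost without sub-SCI replicate 3 (-1.25, adjusted p = 0.0222), +MSC-1w replicate 1 (-1.30, adjusted p = 0.021), +MSC-1w replicate 2 (-1.47, adjusted p = 0.0118) or +MSC-1w replicate 3 (-1.49, adjusted p = 0.0101). Fn1, fibronectin, was at 1355, 1866 and 5830 CPM in sub-SCI and 376, 1086 and 646 CPM in +MSC-1w (log2 fold change -2.10, SE 0.58, adjusted p = 0.00972), and the call was lost without sub-SCI replicate 3 (-1.20, adjusted p = 0.139), +MSC-1w replicate 1 (-1.80, adjusted p = 0.0533), +MSC-1w replicate 2 (-2.56, adjusted p = 0.0112) or +MSC-1w replicate 3 (-2.04, adjusted p = 0.037). Col7a1, the anchoring fibril collagen, was at 89.5, 98.4 and 107 CPM in sub-SCI, 22, 27.0 and 28.2 CPM in +MSC-1w and 55.0, 71.3 and 74.2 CPM in +PBS-1w (log2 fold change in +MSC-1w -1.93, SE 0.22, adjusted p = 1.17e-05). Sdc1, a heparan sulfate proteoglycan of the cell surface, was at 78.9, 111 and 129.6 CPM in sub-SCI and 18.4, 18.8 and 17.2 CPM in +MSC-1w (log2 fold change -2.56, SE 0.26, adjusted p = 4.05e-06).

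Astrocyte genes moved in both directions. Of 12 genes of astrocyte homeostasis, 6 were DEGs, all higher, with a list median of 1.12 in +MSC-1w and 0.50 in +PBS-1w. With sub-SCI replicate 3 left out, 2 were DEGs. Aqp4, the water channel of astrocyte endfeet, was at 909.6, 820.3 and 431 CPM in sub-SCI, 2115, 2163 and 2098 CPM in +MSC-1w, 1392, 1828 and 788 CPM in +PBS-1w and 1890 to 2063 CPM in Intact. All +MSC-1w libraries lay above the Intact range, and +PBS-1w spread widely. The log2 fold change was 1.56 (SE 0.27, adjusted p = 0.000266).

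Of 11 reactive astrocyte genes, 2 were DEGs, both lower, Tnc and Nes. Tnc encodes tenascin C, a matrix protein of the glial scar, and was at 435, 536 and 963 CPM in sub-SCI, 48.0, 91.3 and 83.6 CPM in +MSC-1w and 125, 130.3 and 153 CPM in +PBS-1w (log2 fold change in +MSC-1w -3.12, SE 0.55, adjusted p = 0.000355). Nes, the intermediate filament nestin, was at 68.5, 58.5 and 76.4 CPM in sub-SCI and 26.3, 34.6 and 22.6 CPM in +MSC-1w (log2 fold change -1.28, SE 0.21, adjusted p = 0.00022). Gfap, the filament that defines reactive astrocytes, had the opposite sign, at 7919, 4611 and 3680 CPM in sub-SCI and 10020, 10200 and 9322 CPM in +MSC-1w. Its log2 fold change of 0.87 (SE 0.30) had an adjusted p of 0.035, and without sub-SCI replicate 1 it was 1.25 with an adjusted p of 0.00669. Of 11 proteoglycans and link proteins, 1 was a DEG and higher and 1 lower, with 8 members positive, 3 negative and a median of 0.45. Hapln4, a link protein of the nets around neurons, was at 23.4, 47.5 and 6.0 CPM in sub-SCI and 145, 98.0 and 112 CPM in +MSC-1w (log2 fold change 2.21, SE 0.54, adjusted p = 0.00444), and the call was lost without sub-SCI replicate 1 (2.15, adjusted p = 0.0183), sub-SCI replicate 3 (1.74, adjusted p = 0.0215) or +MSC-1w replicate 1 (2.03, adjusted p = 0.0174). Vcan, the chondroitin sulfate proteoglycan versican, was at 269.8, 314 and 454 CPM in sub-SCI and 94.5, 140.1 and 125 CPM in +MSC-1w (log2 fold change -1.53, SE 0.23, adjusted p = 9.51e-05), while Intact libraries held 101 to 119.5 CPM.

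Many neuronal genes were higher in +MSC-1w. Of 15 neuron markers, 7 were DEGs, all higher, and the list median was 1.65 in +MSC-1w and 0.55 in +PBS-1w. Without sub-SCI replicate 3, which had the lowest neuron marker level, 2 were DEGs, and without sub-SCI replicate 1 or without +MSC-1w replicate 1, which had the highest level, 3 were. Lists of peripheral tissue markers were summed as well. The summed level of the sensory ganglion list was 176.8, 159.3 and 75.1 CPM in sub-SCI and 502.3, 198.4 and 258.0 CPM in +MSC-1w, and that of the Schwann cell list was 553.7, 477.6 and 1020 CPM in sub-SCI and 2275, 1509 and 1021 CPM in +MSC-1w. Within +MSC-1w both sums, like that of the neuron markers, were highest in replicate 1. Within sub-SCI the Schwann cell sum was highest in replicate 3, where the neuron marker sum was lowest. In +PBS-1w the ganglion sums were 68.3 to 211.4 CPM and the Schwann cell sums 505.5 to 3959 CPM. Of 9 sensory ganglion genes, 1 was a DEG and higher, and the list median was 0.83. In this list 7 members were positive and 2 negative, with log2 fold changes from -0.28 to 2.63. Scn10a and Scn11a, sodium channels of pain-sensing ganglion neurons, were under 0.5 CPM in all 6 libraries, with Scn11a at 0 in sub-SCI replicate 1. Both were chosen after their values were seen and lay below the list median, so they do not stand for the list. The part of peripheral tissue in the neuronal differences was not tested. Rbfox3, the nuclear marker NeuN, was at 6.54, 9.89 and 3.32 CPM in sub-SCI, 34.0, 25.3 and 22.9 CPM in +MSC-1w, 15.4, 14.8 and 8.69 CPM in +PBS-1w and 62.8 to 76.1 CPM in Intact. All groups lay apart except that +PBS-1w replicate 3 fell within the sub-SCI range. The log2 fold change was 2.06 (SE 0.39, adjusted p = 0.000602). The dendrite protein gene Map2 was at 254, 275 and 122 CPM in sub-SCI and 629.8, 625 and 569 CPM in +MSC-1w (log2 fold change 1.48, SE 0.26, adjusted p = 0.000362). Nefl, the light neurofilament of axons, was at 336, 536 and 78.4 CPM in sub-SCI, 2084, 1044 and 1422 CPM in +MSC-1w, 616, 501 and 279 CPM in +PBS-1w and 2976 to 3622 CPM in Intact. For Nefl the log2 fold change was 2.26 (SE 0.53, adjusted p = 0.00309), and the call was lost without sub-SCI replicate 1 (2.30, adjusted p = 0.0109), sub-SCI replicate 3 (1.80, adjusted p = 0.0145) or +MSC-1w replicate 1 (1.96, adjusted p = 0.0164).

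Most GABA receptor subunits were higher in +MSC-1w. Of 14 subunits tested, 11 were DEGs, all higher, with a list median of 1.67 in +MSC-1w and 0.85 in +PBS-1w. The others were Gabra4 (1.13, adjusted p = 0.0163, and 1.40 with 0.00655 without +MSC-1w replicate 3), Gabrg3 (1.36, adjusted p = 0.0593) and Gabrd (0.37, adjusted p = 0.738). In the fit without sub-SCI replicate 3, 7 of the 14 were DEGs. None was a DEG between +MSC-1w and +PBS-1w. The summed level of the list was 241.6 to 407.5 CPM in sub-SCI, 782.4 to 878.4 CPM in +MSC-1w, 385.2 to 613.2 CPM in +PBS-1w and 1310 to 1562 CPM in Intact.

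Gabra3, an alpha subunit, was at 3.43, 5.69 and 1.86 CPM in sub-SCI, 19.2, 19.3 and 13.2 CPM in +MSC-1w, 8.38, 9.25 and 6.04 CPM in +PBS-1w and 34.2 to 50.3 CPM in Intact (log2 fold change in +MSC-1w 2.24, SE 0.40, adjusted p = 0.000356). Sub-SCI replicate 3 was the lowest library, and the 4 groups did not overlap. Gabra5, a subunit of receptors outside the synapse, had a log2 fold change of 2.26 (adjusted p = 0.00464) that was no longer a DEG without sub-SCI replicate 1 (2.21, adjusted p = 0.0186), sub-SCI replicate 3 (1.85, adjusted p = 0.0328), +MSC-1w replicate 1 (2.05, adjusted p = 0.0196) or +MSC-1w replicate 2 (2.30, adjusted p = 0.011). Gabrb2 was at 0.814, 0.326 and 0.271 CPM in sub-SCI and 3.22, 6.09 and 4.21 CPM in +MSC-1w (log2 fold change 3.22, SE 0.63, adjusted p = 0.000757), the widest difference of the family.

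The transporter that lowers chloride in neurons, KCC2, is encoded by Slc12a5. Its level was 34.7, 47.5 and 11.5 CPM in sub-SCI, 203, 164 and 122 CPM in +MSC-1w, 86.0, 71.9 and 44.5 CPM in +PBS-1w and 385 to 486 CPM in Intact. The log2 fold change was 2.39 (SE 0.42, adjusted p = 0.000357) in +MSC-1w and 1.11 (SE 0.41, adjusted p = 0.138) in +PBS-1w, and their difference was 1.27 (SE 0.41, adjusted p = 0.13). Slc12a2, the importer NKCC1 that works against it, was at 318, 296 and 271 CPM in sub-SCI and 343, 385 and 369 CPM in +MSC-1w (log2 fold change 0.31, SE 0.15, adjusted p = 0.116). Of 9 genes for inhibitory transmitter synthesis, transport and chloride, 6 were DEGs, all higher, and 4 without sub-SCI replicate 3. The glycine transporter of inhibitory terminals, Slc6a5, was at 22.4, 44.3 and 6.68 CPM in sub-SCI and 194, 178 and 164 CPM in +MSC-1w (log2 fold change 2.87, SE 0.55, adjusted p = 0.000686). Bdnf, a neurotrophin that acts on KCC2 and GABA receptors, was at 1.95, 2.61 and 1.29 CPM in sub-SCI, 5.62, 4.63 and 2.36 CPM in +MSC-1w and 1.87, 2.05 and 2.60 CPM in +PBS-1w, and its groups overlapped (log2 fold change 1.11, SE 0.45, adjusted p = 0.0667).

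Other receptors and the release machinery moved the same way. Of 16 glycine and glutamate receptor subunits, 9 were DEGs, all higher, 3 without sub-SCI replicate 3 and 4 without +MSC-1w replicate 2. Glra1, the main glycine receptor subunit of the adult cord, was at 6.71, 11.2 and 2.88 CPM in sub-SCI, 56.4, 60.2 and 44.1 CPM in +MSC-1w and 23.4, 24.1 and 9.89 CPM in +PBS-1w (log2 fold change in +MSC-1w 2.95, SE 0.39, adjusted p = 4.64e-05). Glra2, another glycine receptor subunit, was at 0.581, 0.725 and 0.170 CPM in sub-SCI and 2.88, 2.52 and 2.44 CPM in +MSC-1w (log2 fold change 2.40, SE 0.40, adjusted p = 0.000204). Gria1, a subunit of AMPA-type glutamate receptors, was at 8.69, 7.29 and 4.51 CPM in sub-SCI and 17.5, 23.6 and 15.1 CPM in +MSC-1w (log2 fold change 1.45, SE 0.27, adjusted p = 0.00054). Of 16 presynaptic genes, 12 were DEGs, all higher, with a median of 1.84, and 6 without sub-SCI replicate 3 and 7 without +MSC-1w replicate 1. Sv2c, a synaptic vesicle protein, was at 5.03, 7.79 and 5.02 CPM in sub-SCI, 49.6, 58.2 and 49.5 CPM in +MSC-1w and 37.2, 19.6 and 11.9 CPM in +PBS-1w (log2 fold change in +MSC-1w 3.14, SE 0.47, adjusted p = 9.98e-05). Syt2, the calcium sensor of fast synapses, was also higher (log2 fold change 2.87, SE 0.41, adjusted p = 7.06e-05). Cplx2, a complexin that clamps vesicle fusion, was at 18.7, 20.8 and 17.8 CPM in sub-SCI and 48.0, 54.0 and 37.8 CPM in +MSC-1w (log2 fold change 1.29, SE 0.18, adjusted p = 5.33e-05).

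Of 16 motor neuron, sodium channel and calcium channel genes, 13 were DEGs, all higher, with a median of 2.02 in +MSC-1w and 0.90 in +PBS-1w, and 7 without sub-SCI replicate 3. Cacng2, stargazin, an auxiliary subunit of AMPA receptors, was at 5.84, 8.01 and 2.20 CPM in sub-SCI and 34.6, 22.8 and 26.1 CPM in +MSC-1w (log2 fold change 2.38, SE 0.35, adjusted p = 8.51e-05). Scn8a, the sodium channel of nodes and axon initial segments, was at 16.3, 24.9 and 9.73 CPM in sub-SCI and 87.9, 97.0 and 84.2 CPM in +MSC-1w (log2 fold change 2.40, SE 0.37, adjusted p = 0.000116). Scn1a, a neuronal sodium channel, was at 10.6, 27.0 and 3.32 CPM in sub-SCI, 89.5, 92.5 and 85.7 CPM in +MSC-1w and 30.02, 28.6 and 24.1 CPM in +PBS-1w (log2 fold change in +MSC-1w 2.71, SE 0.46, adjusted p = 0.000255). Chat, which makes acetylcholine in motor neurons, was at 7.53, 6.67 and 1.899 CPM in sub-SCI and 41.3, 18.3 and 28.5 CPM in +MSC-1w, where Intact libraries held 30.2 to 49.98 CPM (log2 fold change 2.45, SE 0.45, adjusted p = 0.000464). Kcna2, a potassium channel beside the nodes of Ranvier, was at 82.9, 96.4 and 40.1 CPM in sub-SCI, 312, 336 and 317 CPM in +MSC-1w and 159.6, 171 and 144 CPM in +PBS-1w (log2 fold change in +MSC-1w 2.14, SE 0.22, adjusted p = 5.31e-06). The 3 groups did not overlap for Kcna2. In the sub-SCI libraries the neuron marker sum was lowest where the collagen sum was highest, 851.4 and 17730 CPM in replicate 3, and the part of this library's makeup in the results on neuronal genes was not tested.

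**Figure D3:**
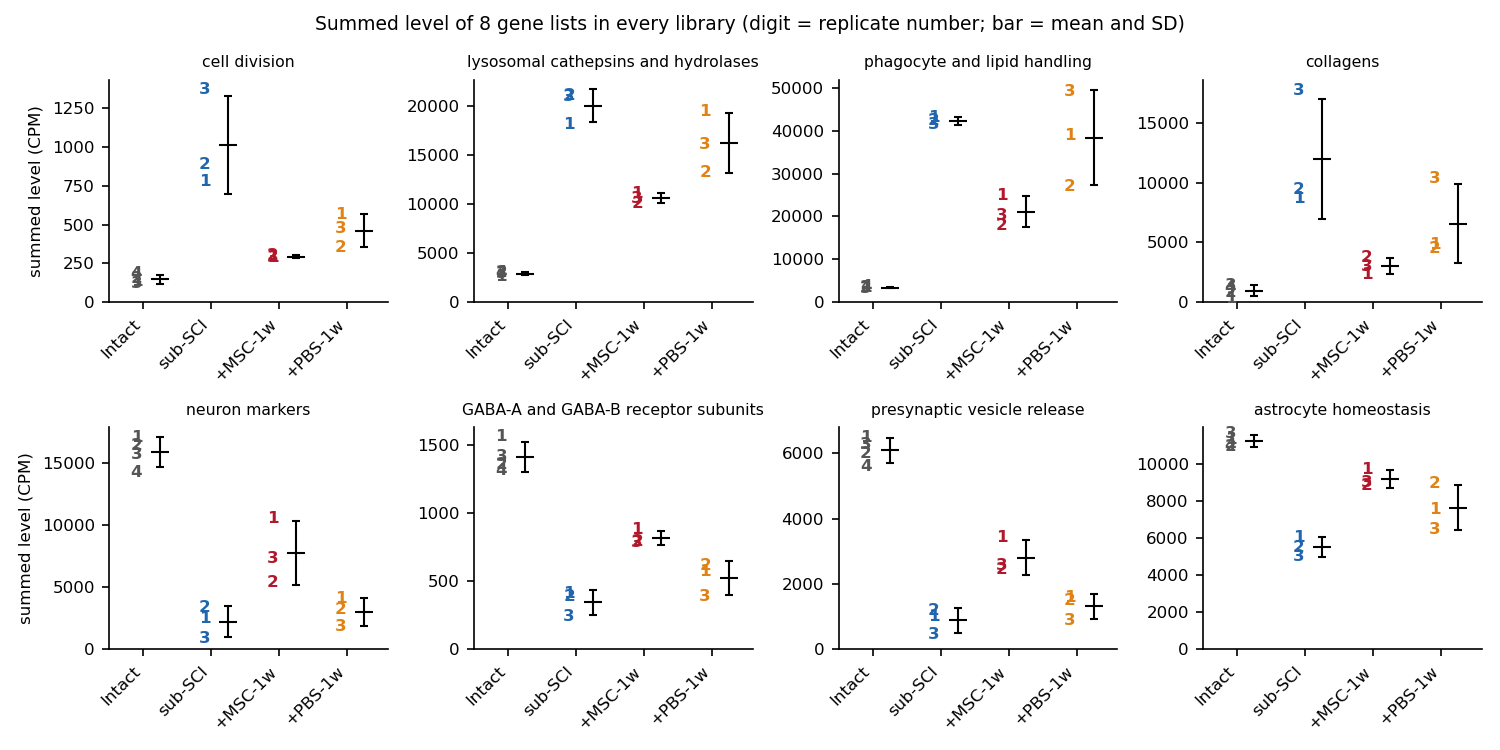
Summed level (CPM) of 8 gene lists in Intact, sub-SCI, +MSC-1w and +PBS-1w, with each digit the replicate number of a library, placed at that library's value, and each bar the group's mean and SD. Sub-SCI replicate 3 has the highest cell division and collagen sums and the lowest neuron and GABA receptor sums of its group, and in all 8 lists the +MSC-1w libraries lie apart from the sub-SCI libraries.

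Other lists had few or no DEGs. Of 13 axon regeneration genes, edgeR and DESeq2 on all libraries called none, with 1 higher and 4 lower at an unadjusted p under 0.05 and a median of -0.27. Atf3, an injury-induced transcription factor, was at 91.2, 74.3 and 79.7 CPM in sub-SCI and 45.4, 41.0 and 46.2 CPM in +MSC-1w (log2 fold change -0.89, SE 0.36, adjusted p = 0.0678). Of 11 neurotrophic factors and receptors, 4 were DEGs and higher, among them Ntrk2, Ntrk3 and Ret, and 1 was lower. Without sub-SCI replicate 3, +MSC-1w replicate 1 or +MSC-1w replicate 3 no member was lower. Ntrk2, the receptor for brain-derived neurotrophic factor, was at 365, 264 and 197 CPM in sub-SCI and 589.9, 792 and 672 CPM in +MSC-1w (log2 fold change 1.32, SE 0.23, adjusted p = 0.000377).

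Few myelin genes were DEGs. Of 13 central myelin genes, 1 was a DEG, Opalin, a protein of mature oligodendrocytes, at 41.8, 83.2 and 34.9 CPM in sub-SCI and 166, 158 and 210.0 CPM in +MSC-1w (log2 fold change 1.74, SE 0.34, adjusted p = 0.000871). The list median was 0.28. The 9 Schwann cell genes had no DEG by edgeR, 2 higher at an unadjusted p under 0.05 and none by DESeq2 on all libraries. DESeq2 on the 2 groups alone called 4 of them higher, where it called 1466 higher over all genes. The list median was 0.98 in +MSC-1w and 0.97 in +PBS-1w, with 8 members positive and 1 negative in +MSC-1w. Of 10 motile cilia genes of ependymal cells, 3 were DEGs, all higher, with a median of 1.05 in +MSC-1w and 1.08 in +PBS-1w, and 1 without sub-SCI replicate 3 or without +MSC-1w replicate 2. Dnah9, an axonemal dynein, was at 7.21, 9.89 and 4.75 CPM in sub-SCI, 17.1, 25.8 and 21.4 CPM in +MSC-1w and 15.4, 17.2 and 16.9 CPM in +PBS-1w (log2 fold change in +MSC-1w 1.56, SE 0.23, adjusted p = 8.04e-05).

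**Figure D4:**
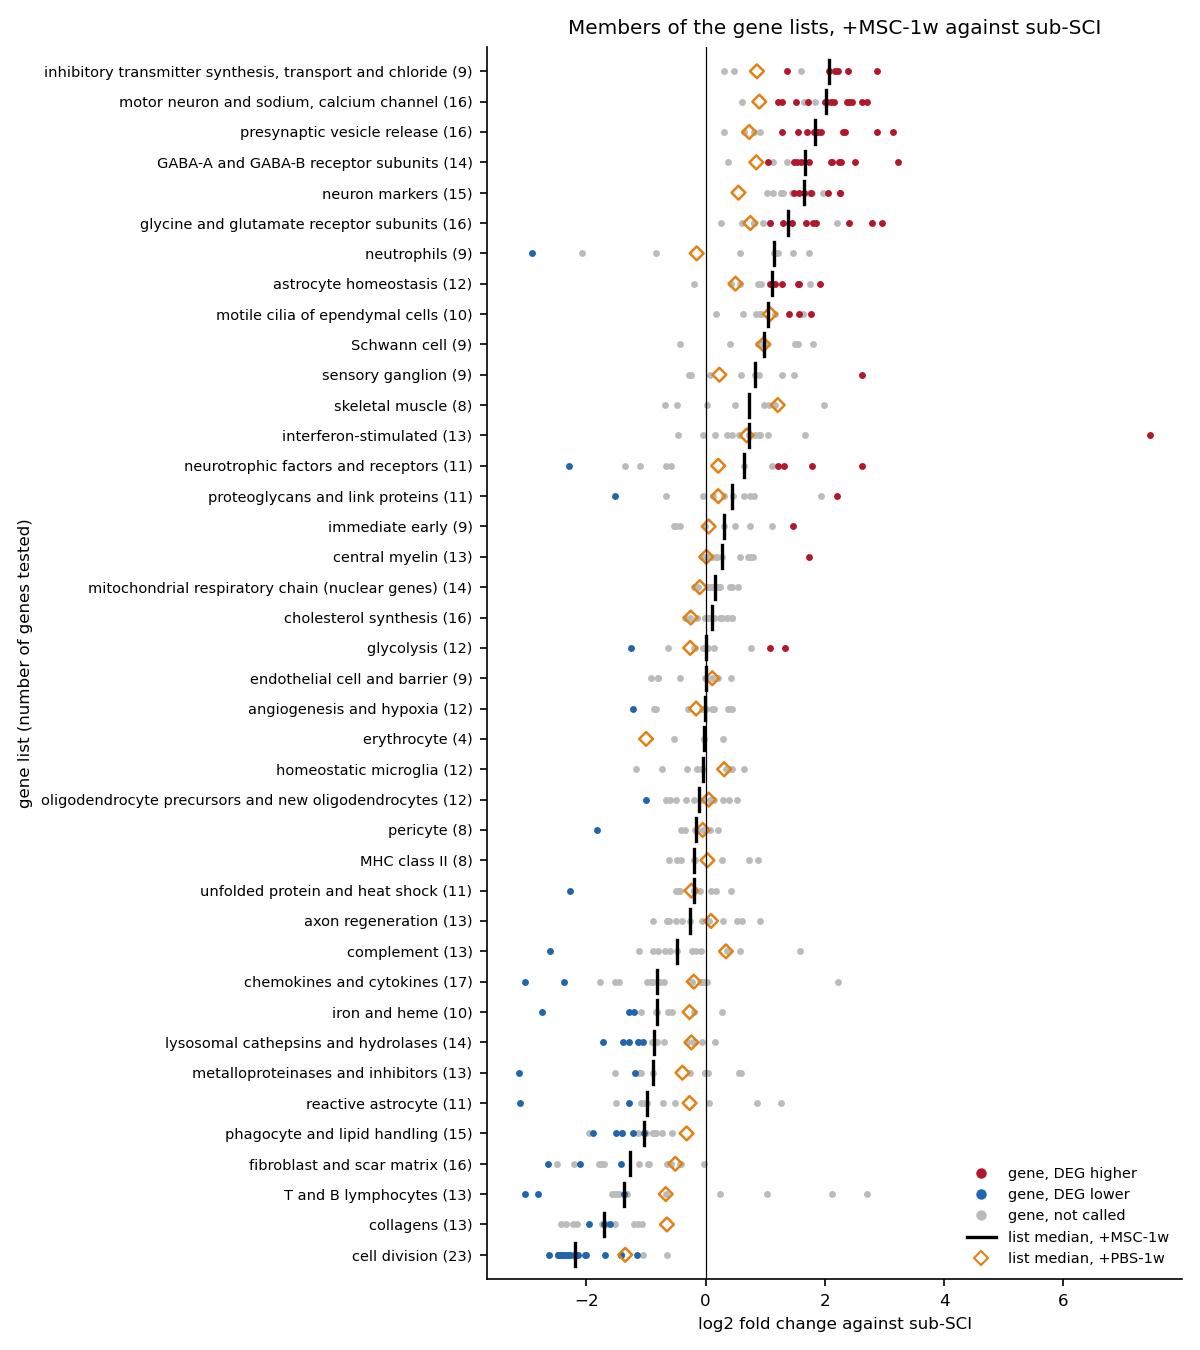
Log2 fold change against sub-SCI (horizontal axis) for the genes tested in 40 lists (vertical axis, number tested in parentheses), ordered by list median. Red and blue points are DEGs higher and lower in +MSC-1w, grey points are not called, black bars are list medians in +MSC-1w and open diamonds are list medians in +PBS-1w. The cell division median was -2.20 in +MSC-1w and -1.35 in +PBS-1w, and that of the GABA receptor subunits 1.67 and 0.85, and both sets of estimates use the same sub-SCI libraries.

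The 16 cholesterol synthesis genes had a median of 0.10 and the 14 nuclear genes of the respiratory chain one of 0.15, with no DEG in either by edgeR or DESeq2 on all libraries and 1 and 3 genes higher at an unadjusted p under 0.05. Of 12 glycolysis genes, 2 were higher and 1 lower, and without sub-SCI replicate 3 there were 1 and 0. Pfkm, a phosphofructokinase subunit, was at 126, 127 and 72.0 CPM in sub-SCI and 326, 246 and 248 CPM in +MSC-1w (log2 fold change 1.34, SE 0.25, adjusted p = 0.000602). Ldha, lactate dehydrogenase A, was at 314, 295 and 509 CPM in sub-SCI and 167, 164 and 141 CPM in +MSC-1w (log2 fold change -1.25, SE 0.18, adjusted p = 6.49e-05), and without sub-SCI replicate 3 its log2 fold change of -0.95 missed the fold threshold. The lists of 9 endothelial genes and 4 erythrocyte genes had no DEG by edgeR or DESeq2 on all libraries, with 2 lower endothelial genes at an unadjusted p under 0.05 and no erythrocyte gene.

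Ranking by adjusted p favors genes with little spread between libraries, so a small spread in these genes is not a result. Log2 fold changes ran from 1.08 to 3.46 in the 12 higher DEGs of smallest adjusted p and from -2.75 to -1.16 in the 12 lower. Pygb, the brain form of glycogen phosphorylase, had the smallest adjusted p of the higher DEGs, at 159, 139 and 140.1 CPM in sub-SCI, 359.9, 343 and 326 CPM in +MSC-1w, 262, 231 and 207 CPM in +PBS-1w and 494 to 573 CPM in Intact. The 4 groups did not overlap, and the log2 fold change was 1.23 (SE 0.10, adjusted p = 4.94e-07) in +MSC-1w and 0.68 (SE 0.10, adjusted p = 0.00335) in +PBS-1w, with a difference of 0.56 (adjusted p = 0.0347). The other 11 were Hspa12a, Kcna2, Fam151a, Insyn2, Dnajc27, Ndst4, Slc4a3, Pitpnm3, Pnma2, Tom1l2 and Sh3gl2. Ndst4, an enzyme of heparan sulfate synthesis, was at 0.349, 0.362 and 0.102 CPM in sub-SCI, 2.19, 3.83 and 3.11 CPM in +MSC-1w and 0.921, 1.01 and 1.16 CPM in +PBS-1w (log2 fold change in +MSC-1w 3.46, SE 0.38, adjusted p = 8.20e-06). Sh3gl2, endophilin A1 of synaptic vesicle recycling, was at 29.9, 35.4 and 15.3 CPM in sub-SCI and 97.4, 89.4 and 84.8 CPM in +MSC-1w (log2 fold change 1.75, SE 0.21, adjusted p = 2.22e-05). Of the lower genes not yet described, Tmem86a was at 159.6, 227 and 198 CPM in sub-SCI and 58.2, 53.2 and 68.8 CPM in +MSC-1w (log2 fold change -1.70, SE 0.17, adjusted p = 4.05e-06). Ckap4 and Card19 had log2 fold changes of -1.74 and -1.16.

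**Figure D5:**
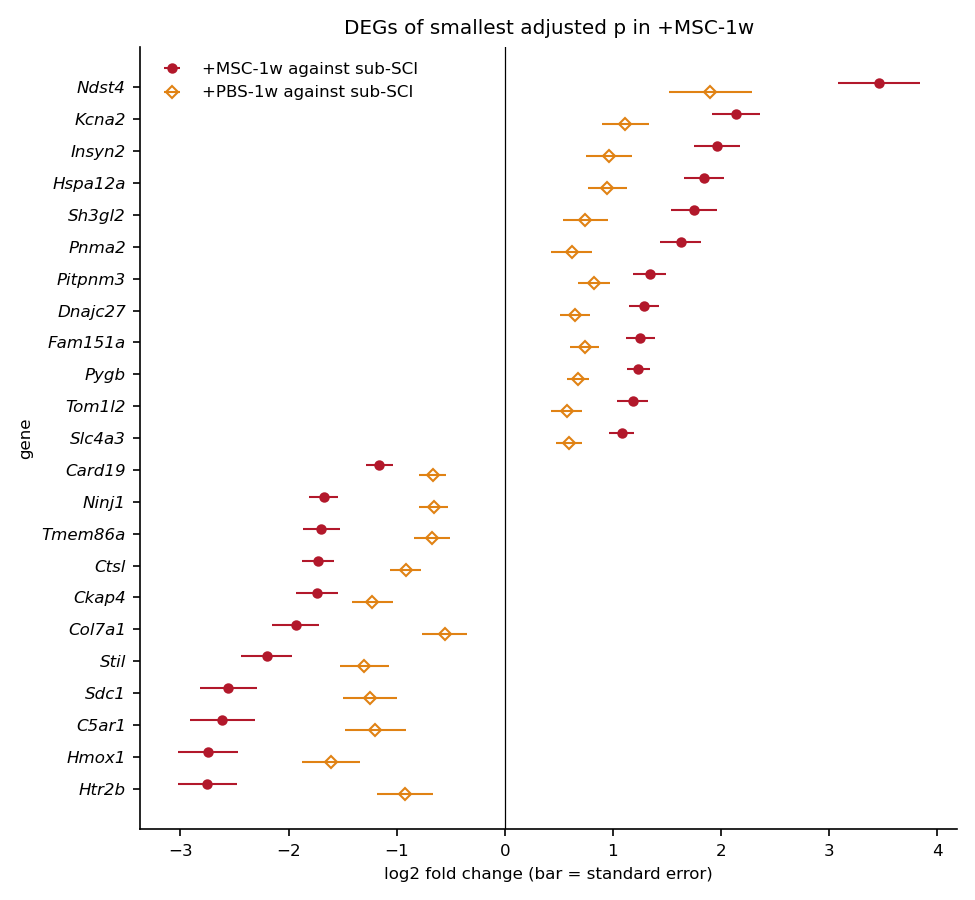
Log2 fold change with its standard error (bars) against sub-SCI for the 12 higher and 11 of the 12 lower DEGs of smallest adjusted p in +MSC-1w, with filled circles for +MSC-1w and open diamonds for +PBS-1w. Htr2b, for example, lies at -2.75 in +MSC-1w and -0.93 in +PBS-1w, and both estimates use the same sub-SCI libraries.

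The next genes are DEGs with a symbol and a mean of at least 1 CPM over the 6 libraries, ranked by fold change. Many of them were at low or variable levels, while Sv2c and Lbp were not low. Over all genes tested, log2 fold changes ran from -7.85 to 9.37. Ifit1, an interferon-induced antiviral gene, was at 0.203, 0.254 and 0.305 CPM in sub-SCI and 38.2, 27.6 and 70.4 CPM in +MSC-1w (log2 fold change 7.46, SE 1.57, adjusted p = 0.0014). In +PBS-1w it was at 23.4, 53.6 and 0.120 CPM, so replicate 3 of that group resembled sub-SCI, and without sub-SCI replicate 3 the adjusted p in +MSC-1w was 0.0109. It was the only DEG of 13 interferon-stimulated genes by edgeR on all libraries, whose median was 0.72 in +MSC-1w and 0.69 in +PBS-1w. Pld5 was at 0.988, 0.942 and 0.712 CPM in sub-SCI and 11.7, 12.9 and 2.95 CPM in +MSC-1w (log2 fold change 3.38, SE 0.68, adjusted p = 0.001), and Creg2 at 0.436, 0.761 and 0.203 CPM in sub-SCI and 3.52, 5.54 and 3.86 CPM in +MSC-1w (log2 fold change 3.20, SE 0.59, adjusted p = 0.000483). The lower genes of this kind were led by Tnn, tenascin N, at 15.6, 36.5 and 84.2 CPM in sub-SCI, 0.992, 2.99 and 2.17 CPM in +MSC-1w and 11.1, 11.7 and 2.48 CPM in +PBS-1w (log2 fold change in +MSC-1w -4.47, SE 0.91, adjusted p = 0.00109). Lbp, which binds bacterial lipopolysaccharide, was at 436, 421 and 947 CPM in sub-SCI, 32.9, 64.8 and 64.8 CPM in +MSC-1w and 185, 334 and 252 CPM in +PBS-1w (log2 fold change in +MSC-1w -3.47, SE 0.63, adjusted p = 0.000454). Vsig4, a complement receptor of tissue macrophages, was at 3.17, 1.89 and 5.36 CPM in sub-SCI and 0.240, 0.364 and 0.276 CPM in +MSC-1w (log2 fold change -3.55, SE 0.73, adjusted p = 0.00117).

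Cd300c2, Hmga2 and Msln also had log2 fold changes under -3.5 and were not DEGs without single libraries. Cd300c2 was at 8.28, 80.2 and 86.9 CPM in sub-SCI and 0.842, 8.56 and 1.02 CPM in +MSC-1w, so its groups overlapped (log2 fold change -4.08, SE 1.12, adjusted p = 0.00894), and its call was lost without sub-SCI replicate 2 or 3 or without +MSC-1w replicate 1 or 3 (from -3.78 to -3.60). Hmga2, a chromatin protein of growing tissue, was at 1.57, 3.41 and 6.85 CPM in sub-SCI and 0.331, 0.364 and 0.236 CPM in +MSC-1w, and it was not called without sub-SCI replicate 3 (-2.98, adjusted p = 0.0181) or without +MSC-1w replicate 1 (-3.69) or 3 (-3.49). Msln, mesothelin, was at 51.9, 58.0 and 245 CPM in sub-SCI and 5.35, 16.5 and 8.66 CPM in +MSC-1w, and it was not called without sub-SCI replicate 3 (-2.44, adjusted p = 0.0417) or without +MSC-1w replicate 1 (-3.23) or 3 (-3.44).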

How the data were processed

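Poly(A) RNA was sequenced from 26 libraries in 8 groups. Per the labels and the study's methods, the authors trimmed reads with Trim Galore 0.5.0, removed those that HISAT2 2.1.0 mapped to the human genome, aligned the rest to Rnor6, kept proper pairs with SAMtools 1.9 and deposited raw read counts per gene from featureCounts 1.6.4, without normalization. The annotation release and strand setting are not given in the sources used here, so overlapping genes and close paralogs are uncertain. Reads that mapped to the human genome are not part of the counts. Whether this removed all reads of the injected cells, or also some rat reads, was not tested. Each library's own counts equalled its column in the joint table in 26 of 26 libraries.

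Groups and replicate numbers came from the sample titles. Of 32883 genes, 6513 had no count, and filterByExpr kept 17990. In R 4.3.3 these were scaled with TMM factors and tested with edgeR 4.0.16 (glmQLFit, glmQLFTest), with all 26 libraries in 1 model of 8 group levels and no covariate and Benjamini-Hochberg adjustment over the genes tested. Levels are CPM (library-scaled counts, on TMM-scaled totals), are not per length and are compared within a gene. Total counts ran from 19496602 to 43468509 per library, so a level far under 1 CPM stands on a handful of reads. The tests were tried on simulated data first.

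The genes named are the 12 higher and 12 lower DEGs of smallest adjusted p, the 6 higher and 6 lower of largest fold change with a mean of at least 1 CPM (genes with a symbol), the leading and defining members of 40 lists (482 of 516 listed genes tested), and genes that the study singles out. Some genes that these rules name are not reported here. C3, C4a, Hapln4, Mmp19, Scn10a and Scn11a were chosen after their values were seen. Further list members, among them Top2a, Mki67, Mcm2, Slc12a2, Cd3e, Apoe and Col1a1, were named after their values were seen. The comparison and the lists were chosen with earlier results of these data known. Promoters are from RefSeq (GRCr8), a build other than that of the counts, and no other coordinates were used.

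Same-numbered libraries of sub-SCI and +PBS-1w deviated together from their group means (correlation 0.191, 0.202 and 0.411), so the numbers were taken to pair them. The labels do not state such a pairing. The alternatives were DESeq2 1.42.0, fits on the groups compared alone, median-of-ratios size factors, other filters, the replicate number as a block, a term for the replicate 1 libraries or a fit without them, each library left out, and an adjusted p under 0.05 with no fold threshold. For +MSC-1w against +PBS-1w, and for the list counts, they were added after the data were seen.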

Additional observations from a re-analysis of the deposited data

Results flagged for a closer look

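Ninj1 and Htr2b differed between the groups of 1 wpt. The change from sub-SCI in +MSC-1w minus that in +PBS-1w was -1.02 for Ninj1 (adjusted p = 0.00212, edgeR) and -1.83 for Htr2b (adjusted p = 0.00795). In both genes all 3 +MSC-1w libraries lay below all 3 +PBS-1w libraries. Both were picked as the only DEGs between these groups, so this is not separate support. By edgeR neither gene was a DEG when any 1 of the +MSC-1w libraries was left out.

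Among 110 named genes, 9 had 1 of the 4 Intact libraries far from the others by Dixon's criterion, where chance gives about 1 in 20. The library that stood apart held 22.7 CPM for Mki67, 3.84 CPM for Ccnb1, 3.91 CPM for Tnn, 0.114 CPM for Vsig4, 5410 CPM for Gfap, 2430 CPM for Apoe, 544 CPM for Ctsb, 34.1 CPM for Pdgfrb and 525 CPM for Pfkm. Intact libraries enter the comparison of +MSC-1w with sub-SCI only through the shared estimate of the spread.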

How the results depend on the processing

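Of 1163 higher and 633 lower DEGs in +MSC-1w against sub-SCI, DESeq2 on all libraries called 1127 and 631 the same way, and no alternative called a DEG in the opposite direction. The counts moved by over 1.5 times with edgeR on the 2 groups alone (590 higher) and with an adjusted p under 0.05 and no fold threshold (2851 and 2465). With 1 library left out they ran from 482 to 1110 and from 330 to 669, lowest without sub-SCI replicate 3. Of 94 named DEGs, 72 were called in every fit without 1 library, and none changed sign in any setting. With edgeR on the 2 groups alone 18 of the 94 lost the call, and 48 did with the replicate block on the 2 groups alone. Scn10a and Scn11a, both under 0.5 CPM, had log2 fold changes of -0.28 and 0.07 whose sign depended on the setting: with 1 library left out Scn10a ran from -0.58 to 0.05 and Scn11a from -0.63 to 1.59, and Scn11a was at -0.10 with the replicate block over all libraries and -0.21 on replicates other than 1.

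With the replicate number as a block, 1294 were higher and 666 lower over all libraries, and 201 and 250 on the 2 groups alone. Same-numbered sub-SCI and +MSC-1w libraries correlated at 0.2, -0.052 and 0.064, and of the 3 numbers only replicate 1 correlated best with its own.

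For +PBS-1w against sub-SCI, higher and lower counts were 149 and 123 with DESeq2 on all libraries, 104 and 140 with DESeq2 on the 2 groups, 0 and 0 with edgeR on the 2 groups, 4 higher with no filter, 14 higher with at least 10 counts in every library, 19 and 33 with a term for replicate 1, 33 and 73 on the other replicates, 239 and 272 at an adjusted p under 0.05, 0 to 68 and 0 to 38 with 1 library left out, and 4 higher with the replicate block over all libraries and 0 and 0 with it on the 2 groups.

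For +MSC-1w against +PBS-1w they were 30 and 40 with DESeq2 on all libraries, 231 and 114 with DESeq2 on the 2 groups, 0 lower with edgeR on the 2 groups, 7 and 11 at an adjusted p under 0.05, 0 to 0 and 0 to 2 with 1 library left out, and 4 lower with the replicate block over all libraries and 0 with it on the 2 groups. The cause of these differences was not tested.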

Other observations

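Of the lists not described above, those of heat shock, immediate early, hypoxia, neutrophil, pericyte and oligodendrocyte precursor genes held 1 DEG each in +MSC-1w against sub-SCI. Hspa1b, an inducible heat shock protein, was at 13.5, 2.79 and 3.59 CPM in sub-SCI and 1.53, 1.24 and 1.34 CPM in +MSC-1w (log2 fold change -2.27, SE 0.47, adjusted p = 0.00131), and the call was lost without sub-SCI replicate 1 (-1.22, adjusted p = 0.021). Arc, an activity-induced gene of neurons, was at 1.98, 2.46 and 1.12 CPM in sub-SCI and 6.25, 6.09 and 2.99 CPM in +MSC-1w (log2 fold change 1.46, SE 0.41, adjusted p = 0.00987), and the call was lost without sub-SCI replicate 1 (1.51, adjusted p = 0.0243), sub-SCI replicate 2 (1.72, adjusted p = 0.0112), sub-SCI replicate 3 (adjusted p = 0.0671), +MSC-1w replicate 1 (1.29, adjusted p = 0.043) or +MSC-1w replicate 2 (1.32, adjusted p = 0.0389). Adm, adrenomedullin, a vasodilator induced by hypoxia, was at 22.1, 18.5 and 26 CPM in sub-SCI and 9.86, 10.8 and 8.07 CPM in +MSC-1w (log2 fold change -1.21, SE 0.22, adjusted p = 0.000436). The 9 neutrophil genes had a median of 1.14, with 6 positive and 3 negative, and the only DEG went against that median. Mmp8, the collagenase of neutrophils, was at 118, 137 and 101 CPM in sub-SCI and 19.2, 10.3 and 17.4 CPM in +MSC-1w (log2 fold change -2.92, SE 0.73, adjusted p = 0.00504), and the call was lost without sub-SCI replicate 1 (-2.92, adjusted p = 0.0102), sub-SCI replicate 2 (-2.81, adjusted p = 0.0128), sub-SCI replicate 3 (-3.03, adjusted p = 0.0122), +MSC-1w replicate 1 (-3.10, adjusted p = 0.0169), +MSC-1w replicate 2 (-2.70, adjusted p = 0.029) or +MSC-1w replicate 3 (-3.01, adjusted p = 0.0183). Anpep, aminopeptidase N, found on pericytes and myeloid cells, was at 214, 289.8 and 356 CPM in sub-SCI and 95.3, 59.3 and 86.6 CPM in +MSC-1w (log2 fold change -1.83, SE 0.51, adjusted p = 0.00931), and the call was lost without sub-SCI replicate 1 (adjusted p = 0.0106), sub-SCI replicate 2 (-1.82, adjusted p = 0.02), sub-SCI replicate 3 (-1.65, adjusted p = 0.0429), +MSC-1w replicate 1 (-1.97, adjusted p = 0.0232), +MSC-1w replicate 2 (-1.65, adjusted p = 0.0471) or +MSC-1w replicate 3 (-1.89, adjusted p = 0.0275). Tcf7l2, a transcription factor of newly forming oligodendrocytes, was at 44.5, 27.1 and 24.7 CPM in sub-SCI and 16.1, 14.8 and 17 CPM in +MSC-1w (log2 fold change -1.01, SE 0.24, adjusted p = 0.00328), and the call was lost without sub-SCI replicate 1 (-0.70, adjusted p = 0.0311), +MSC-1w replicate 1 (-1.01, adjusted p = 0.0133) or +MSC-1w replicate 2 (-0.96, adjusted p = 0.0177). The other members of these lists were not DEGs. The 8 skeletal muscle genes had no DEG by edgeR or by DESeq2 on all libraries, with 1 higher at an unadjusted p under 0.05. DESeq2 on the 2 groups alone called 2 of them higher. They summed to 18.4 to 24.5 CPM in sub-SCI and 19.2 to 25.8 CPM in +MSC-1w.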
